A study of Rattus norvegicus with 6 samples.

Results

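The transcripts of 9 islet hormone genes (Ins1, Ins2, Iapp, Gcg, Sst, Ppy, Pyy, Ghrl and Npy) were compared between pancreatic islets of 3-month-old and 12-month-old rats, to ask whether the hormone messages of the islet differ with age. The members were chosen by name, as the hormone genes to which a RefSeq mRNA accession on the array was matched, and are 9 of 13903 named genes. Each had 1 probe on 1 spot, among 24684 probes per array and 17941 probes tested. All animals were male Wistar rats for which the labels name no genetic change or treatment. The islets were freed by collagenase digestion and are therefore a mix of endocrine cells with whatever exocrine, vascular, nerve and connective tissue stayed attached. Total RNA was labelled with Cy3 and put on 1-colour arrays, 3 arrays for the 12-month rats and 3 arrays for the 3-month rats, and the design names 3 rats of each age. In such bulk RNA, fewer cells of a type and less RNA per cell cannot be told apart.

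Each islet hormone gene is used mainly by 1 kind of endocrine cell. Beta cells make insulin, from a pair of genes in the rat (Ins1 and Ins2), and islet amyloid polypeptide (Iapp), which is packed and released with insulin. Alpha cells make glucagon (Gcg), delta cells somatostatin (Sst), the cells named PP or gamma cells pancreatic polypeptide (Ppy), and epsilon cells ghrelin (Ghrl). Peptide YY (Pyy) and neuropeptide Y (Npy) belong to the family of pancreatic polypeptide, and Npy is also the transmitter of sympathetic nerves that reach the islet. Insulin lowers blood glucose, glucagon raises it, and somatostatin restrains both hormones from within the islet.

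The 3 beta cell genes are shown by the 60 bases that lie before the annotated start of each, because the comparison turns on Iapp set against Ins1 and Ins2. The sequences are RefSeq's for assembly GRCr8 and read 5′ to 3′ on the strand of the gene. The capitals mark TATAAA, a form of the core of a TATA box. They lie at chr1:261186059-261186118 on the plus strand (Ins1), chr1:207273806-207273865 on the minus strand (Ins2) and chr4:176968037-176968096 on the plus strand (Iapp).
Ins1: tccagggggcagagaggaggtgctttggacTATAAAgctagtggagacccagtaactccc
Ins2: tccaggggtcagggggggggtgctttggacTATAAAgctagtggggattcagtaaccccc
Iapp: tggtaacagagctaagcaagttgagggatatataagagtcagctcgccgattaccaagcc

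In both insulin genes TATAAA began 30 bases before the start. The 2 insulin windows were identical at 52 of 60 positions (86.7%), whereas Iapp matched Ins1 at 18 positions (30.0%) and Ins2 at 14 (23.3%). Over the 250 bases before the start, on either strand, TATAAA was present in 4 of the 9 hormone genes (Ins1, Ins2, Gcg and Ppy) and in 12.9% of 33469 annotated rat promoters. Only these exact letters were sought, so that similar runs, such as tatataag in the printed Iapp window, were not counted. CATCTG, a letter sequence of the E-box type bound by factors such as Neurod1, was present in Ins1, Ins2 and Gcg and in 14% of all promoters. TAAT, the core recognised by many homeodomain factors, was present in Ins1, Ins2, Iapp, Gcg and Sst, and in 57.0% of all promoters. These are matches of letters and not measured binding. Ppy and Pyy are neighbouring genes in this assembly.

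All 9 hormone probes were well above background on all 6 arrays and none was saturated. Each age was read in a scan of its own, so that age and scan cannot be told apart in any value given here. Negative control spots had a median of 89.5 to 91 scanner units on the 12-month arrays and 29.5 to 31 on the 3-month arrays. The 75th percentile of the probe signals, used below as the brightness of an array, was 2611, 2171 and 1187 scanner units on 12-month replicates 1 to 3, and 353, 1194 and 1464 on 3-month replicates 1 to 3. The 3-month replicate 1 was thus by far the dimmest array. Levels below are log2 signals after quantile normalisation, which gives all arrays the same distribution of signals, and differences are 12 months minus 3 months.

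For none of the 9 hormone transcripts did the limma test reach an adjusted p below 0.05, with Benjamini-Hochberg adjustment over all tested probes, and for 1 of them, Iapp, the unadjusted p was below 0.05. Among all tested probes 8.37% passed the adjusted threshold, 5.32% as higher at 12 months. The study called a transcript at more than 2-fold together with an unadjusted p below 0.05. With limma's unadjusted p in place of the study's, again 0 of 9 hormones passed that threshold. Of all tested probes 22.0% passed it in this way, 10.1% as higher at 12 months. In its lists of changed genes the study computed p-values with the arrays as pairs, so these shares are not the study's own. The arrays of the ages did not overlap for 3 of the 9 hormones, Iapp, Gcg and Ppy, each higher at 12 months. Over all tested probes the ages did not overlap for 39.1%, and 16.5% were higher at 12 months without overlap. The difference was above 0 for 7 of the 9 hormones, for 7538 of the 17941 tested probes and for 47 of the 100 brightest. The median over all tested probes was -0.17. With each array instead shifted to a common 75th percentile, only Iapp and Ghrl were above 0, and the median of all tested probes was -0.40. Of the 100 brightest tested probes, which include 7 of the hormones, 1 passed the adjusted threshold.

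**Figure D1:**
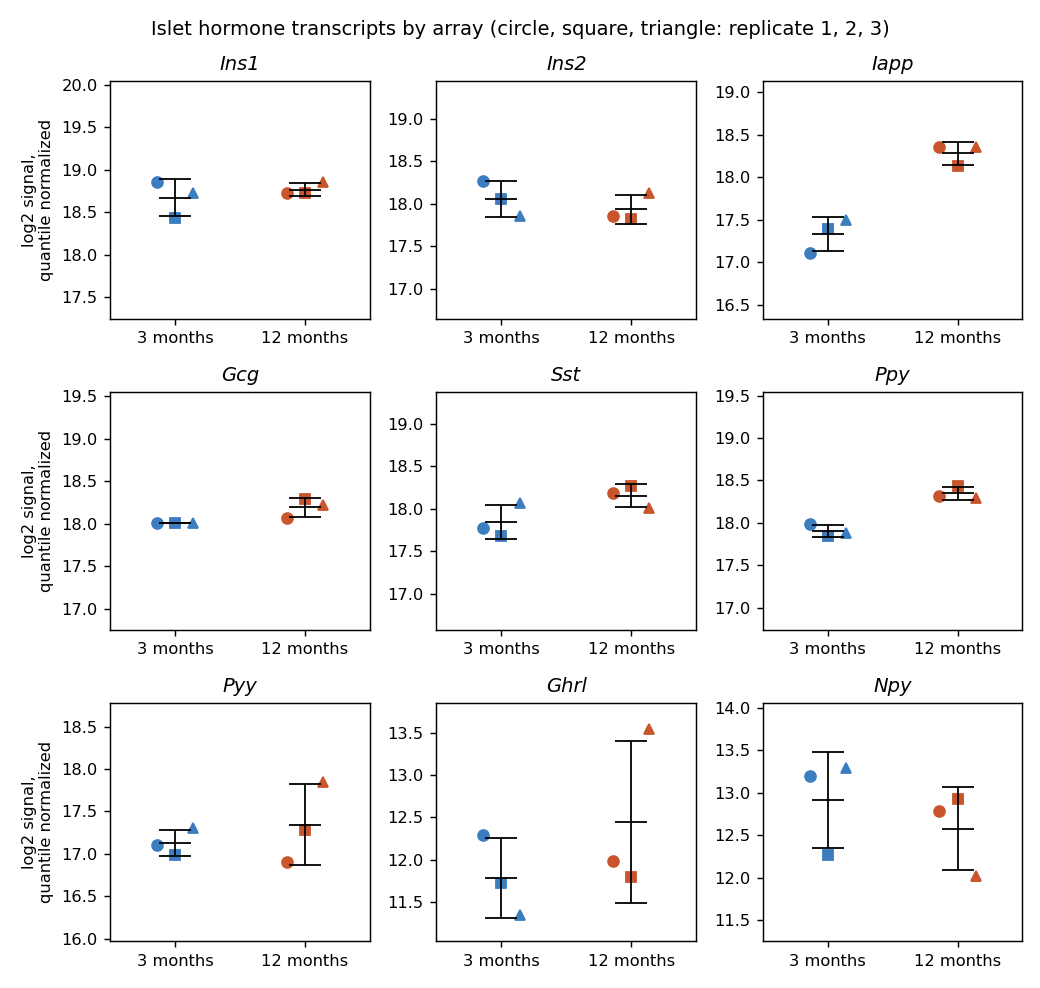
Quantile-normalised log2 signal of the 9 hormone probes on each array (y axis, every panel spans the same number of log2 units) at 3 months (blue) and 12 months (red). Markers are arrays and the black bars give the mean and SD of 3 arrays per age. The ages are apart for Iapp, Gcg and Ppy and overlap in the other panels.

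Among the beta cell hormones, Iapp stood apart from the insulin genes. The Iapp level was 18.36, 18.13 and 18.36 on 12-month replicates 1 to 3, and 17.11, 17.39 and 17.50 on 3-month replicates 1 to 3. All 12-month arrays were above all 3-month arrays, by more than the spread within either age. The 12-month mean was 18.29 ± 0.13 (SD, n = 3) and the 3-month mean 17.33 ± 0.20 (SD, n = 3), a difference of 0.95 (SE 0.23, 95% interval 0.40 to 1.51, 1.94-fold). This difference did not pass the adjusted threshold (limma adjusted p = 0.0532). The adjusted p of Iapp ran from 0.0108 to 0.329 over 23 alternative settings. It was under 0.05 in 7 of them, and the difference was above 0 in all 23. An exact permutation test of the 6 Iapp values gave a two-sided p of 0.1, the smallest that 3 arrays against 3 allow.

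Neither insulin gene showed such a separation after quantile normalisation. The Ins1 level was 18.72, 18.72 and 18.86 on the 12-month arrays and 18.86, 18.43 and 18.72 on the 3-month arrays. The ages overlapped, with the lowest value on 3-month replicate 2 and the same highest value in both ages. On every array but that one Ins1 was rank 1 or 2 in brightness, where quantile normalisation sets the level. A rise of Ins1 at 12 months could therefore hardly show in these values. The difference of Ins1 was 0.10 (SE 0.23, 95% interval -0.45 to 0.65, limma adjusted p = 0.786), and it was -0.023 without 3-month replicate 2. The Ins2 level was 17.85, 17.82 and 18.13 at 12 months and 18.27, 18.05 and 17.85 at 3 months. Here too the ages overlapped, and the difference was -0.12 (SE 0.24, 95% interval -0.70 to 0.45, limma adjusted p = 0.737). The direction of both insulin differences turned with the scaling of the arrays. With no normalisation the differences were 0.48 for Ins1 and 0.48 for Ins2, and neither gene overlapped between the ages. With each array shifted to a common 75th percentile they were -0.67 and -0.67. That shift moved the median of all tested probes from -0.17 to -0.40, and the difference of Iapp minus that median was 1.12 under quantile normalisation and 0.91 under the shift. The probe sequences were not used here, so that cross-reaction between the similar Ins1 and Ins2 messages was not tested.

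The glucagon gene Gcg, the marker hormone of alpha cells, read 18.07, 18.29 and 18.22 on the 12-month arrays. On all 3-month arrays its level was 18.01, because the probe took rank 27 on each of them and quantile normalisation gives equal ranks equal values. All 12-month arrays were higher, but the difference was small, 0.19 (SE 0.21, 95% interval -0.32 to 0.69, limma adjusted p = 0.559). It was -0.22 under the 75th percentile shift, where the median of all probes was also lower.

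Somatostatin (Sst), the delta cell hormone, read 18.19, 18.27 and 18.01 on the 12-month arrays and 17.78, 17.68 and 18.07 on the 3-month arrays. The ages overlapped because 3-month replicate 3 lay above 12-month replicate 3. The difference was 0.32 (SE 0.23, 95% interval -0.24 to 0.87, limma adjusted p = 0.372), and it was -0.077 under the 75th percentile shift.

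Within the pancreatic polypeptide family the values of Ppy were the most tightly grouped. Its level was 18.32, 18.43 and 18.29 at 12 months and 17.99, 17.85 and 17.88 at 3 months. The ages did not overlap, and the SD was 0.074 in each age. The difference of 0.44 (SE 0.21, 95% interval -0.060 to 0.95, 1.36-fold) did not pass the threshold (limma adjusted p = 0.195), and it was -0.037 under the 75th percentile shift. Pyy, the neighbouring gene, read 16.90, 17.28 and 17.85 at 12 months and 17.10, 16.99 and 17.30 at 3 months. The 12-month arrays spanned the whole range of the 3-month arrays, with replicate 3 the highest and replicate 1 the lowest of all 6. Its difference was 0.22 (SE 0.30, 95% interval -0.50 to 0.94, limma adjusted p = 0.639) and turned to -0.036 without 12-month replicate 3.

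Ghrl and Npy gave the widest spread between arrays. The ghrelin gene Ghrl read 11.99, 11.80 and 13.54 at 12 months and 12.29, 11.73 and 11.35 at 3 months. Only 12-month replicate 3 was above all 3-month arrays. The difference was 0.65 (SE 0.51, 95% interval -0.57 to 1.87, limma adjusted p = 0.399), and without that array it was 0.10. Npy read 12.78, 12.93 and 12.02 at 12 months and 13.20, 12.27 and 13.29 at 3 months. The same 12-month replicate 3 was the lowest of all 6 arrays for Npy. The difference was -0.34 (SE 0.39, 95% interval -1.27 to 0.59, limma adjusted p = 0.561), and it was -0.061 without that array.

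**Figure D2:**
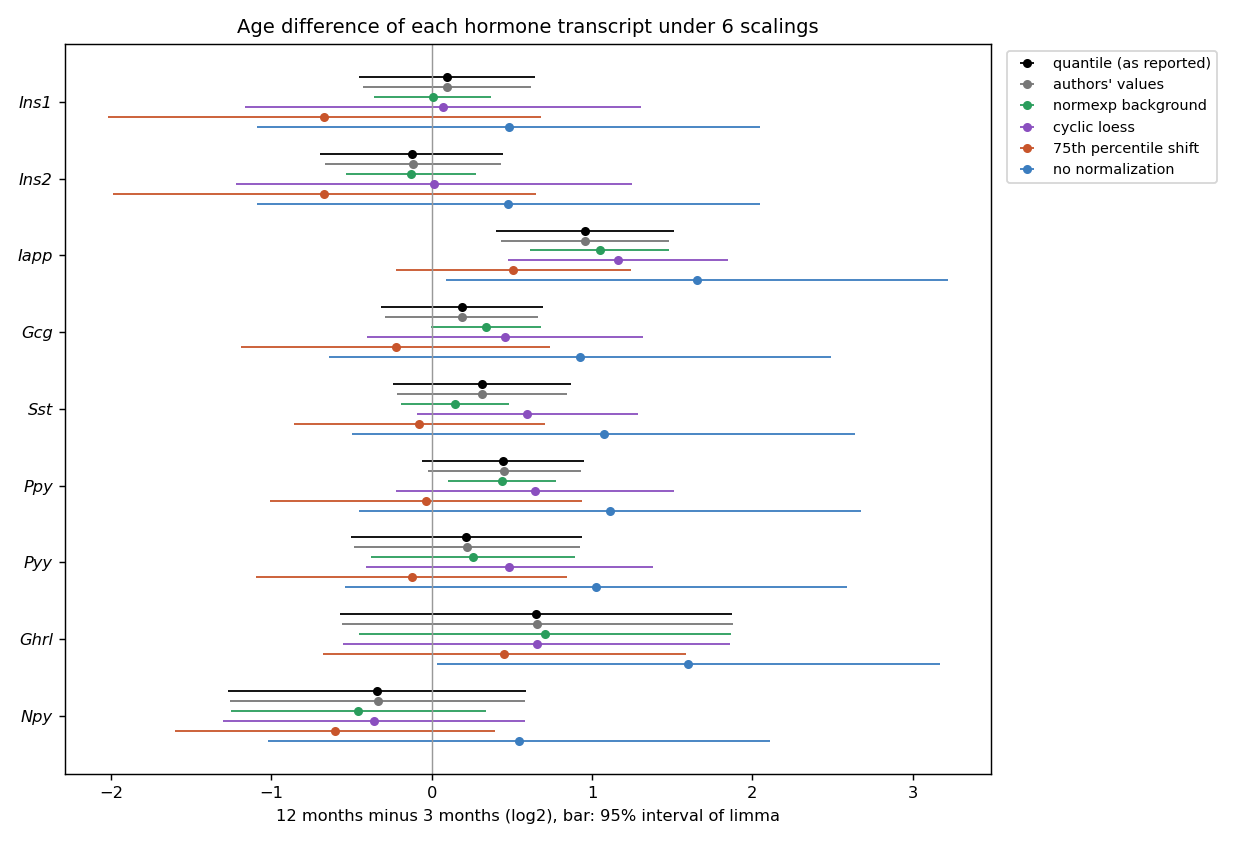
Difference of each hormone transcript between 12 and 3 months (x axis, log2, limma, bars are 95% intervals, n = 3 arrays per age) under 6 ways of scaling or background correction. Iapp is above 0 under all 6, between 0.51 and 1.66, and so is Ghrl, while the point of each other gene changes sign under at least 1 of them.

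Because the hormone spots are among the brightest of the array, each was also ranked among all probes of its own array, where rank 1 is the brightest. Iapp took ranks 13, 23 and 13 on the 12-month arrays and 72, 53 and 47 on the 3-month arrays. Ppy took ranks 15, 9 and 17 at 12 months and 28, 33 and 32 at 3 months. Gcg took 25, 17 and 21 at 12 months and 27 on every 3-month array. Each was brighter at 12 months without overlap. The quantile-normalised levels follow from these ranks, so the ranks restate the levels and are no separate evidence. For each the exact permutation test of the mean rank gave p = 0.1, the smallest possible, and 0.3 after Benjamini-Hochberg adjustment over the 9 genes. Ins1 was rank 1 or 2 on 5 of the 6 arrays and rank 9 on 3-month replicate 2. Ins2 lay between ranks 18 and 35, Sst between 18 and 40 and Pyy between 33 and 92, each with overlap between the ages. Ghrl lay between ranks 1202 and 4318 and Npy between 1429 and 3170, also with overlap. The signal of a probe depends on its sequence as well as on its transcript, so the ranks of different genes are not their relative amounts.

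**Figure D3:**
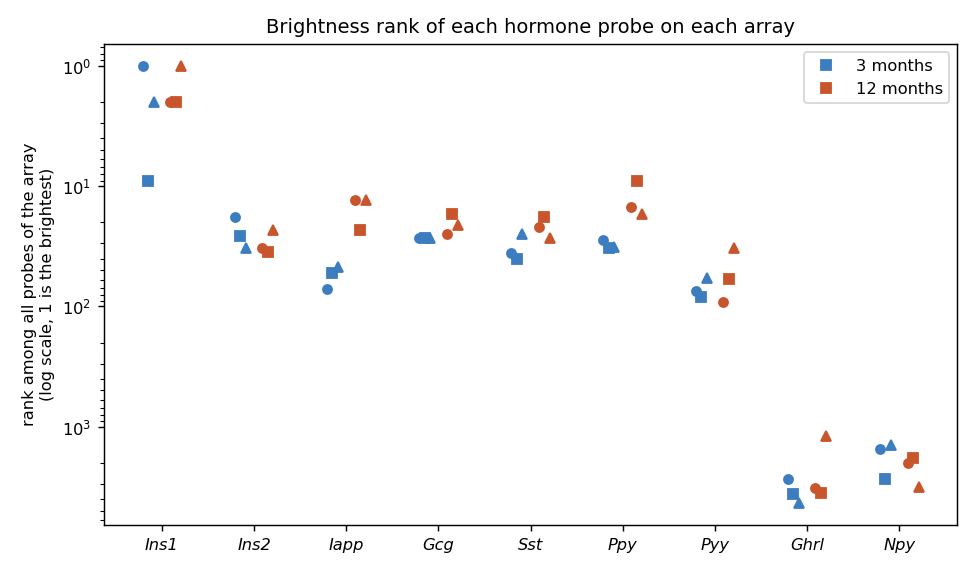
Rank of each hormone probe among all probes of its array (y axis, log scale, rank 1 at the top) on the 3-month (blue) and 12-month (red) arrays, with circles, squares and triangles for replicates 1, 2 and 3. Iapp moves from ranks 47 to 72 at 3 months to ranks 13 to 23 at 12 months.

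The log2 ratio of 2 hormones on the same array, from signals with no normalisation, does not depend on how arrays are scaled to each other. Of the 36 pairs of hormones, 15 had ratios that did not overlap between the ages, 6 of the 8 pairs with Iapp and 9 of the pairs without it. The background was 36.5% over all pairs of tested probes with a value on every array, and 19.3% over the pairs of the 100 brightest of these probes. Each of the 15 hormone pairs had an exact permutation p of 0.1, the smallest possible, and 0.24 after adjustment over the 36 pairs. The pairs share genes and are not independent.

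The ratio of Iapp to Ins1 was -0.28, -0.39 and -0.37 on the 12-month arrays and -2.66, -0.89 and -1.02 on the 3-month arrays. The 12-month arrays lay close together and above all 3-month arrays, and 3-month replicate 1 was far below the rest. The mean difference was 1.18 (2.26-fold), and without 3-month replicate 1 it was 0.61 (1.53-fold). The ratio of Iapp to Ins2 was 0.29, 0.26 and 0.22 at 12 months and -1.92, -0.64 and -0.20 at 3 months. It too did not overlap, and its difference was 1.18, or 0.68 (1.60-fold) without 3-month replicate 1. The ratio of Ins2 to Ins1 was -0.58, -0.65 and -0.58 at 12 months and -0.73, -0.26 and -0.82 at 3 months. The ages overlapped and the means differed by -0.00016 (exact permutation p = 1).

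Iapp was also higher at 12 months relative to the non-beta hormones with bright spots. The ratio of Gcg to Iapp differed by -0.73, that of Sst to Iapp by -0.59, that of Ppy to Iapp by -0.55 and that of Pyy to Iapp by -0.63, and none of these overlapped between the ages. Without 3-month replicate 1 these differences were -0.45, -0.40, -0.24 and -0.56, still with no overlap. The ratio of Ghrl to Iapp overlapped, with a difference of -0.056, and so did that of Npy to Iapp. Against the mean log2 signal of the other 8 hormones, Iapp differed by 0.75, Ghrl by 0.69 and Ins1 by -0.57, each without overlap. Without 3-month replicate 1 these were 0.49, 0.60 and -0.20, still without overlap. Ins2 differed by -0.57 with overlap.

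Among the hormones of other cells, ratios with the dim probes Ghrl and Npy differed as much as those with Iapp. Ghrl differed by 0.68 against Gcg, 0.58 against Pyy and 0.53 against Sst, each without overlap, and Npy by -1.06 against Ghrl, with overlap. The ratio of Ppy to Gcg was 0.11, 0.13 and 0.074 at 12 months and -0.039, -0.13 and -0.080 at 3 months. The ages did not overlap, though the difference was only 0.19, and it was 0.21 without 3-month replicate 1. Set against the beta cell hormone Ins2, Ppy was 0.27, 0.47 and 0.18 at 12 months and -0.72, -0.27 and 0.020 at 3 months, a difference of 0.63 with no overlap, or 0.43 without 3-month replicate 1. Pyy to Ppy, the neighbouring genes, differed by -0.088 and Sst to Gcg by 0.15, both with overlap.

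Within a single age the hormone signals were compared between a bright and a dim array. On 3-month replicate 2 the 75th percentile was 1.76 log2 units above that on 3-month replicate 1. Over the same pair of arrays the signal before normalisation was higher by 1.71 for Iapp, 1.35 for Pyy, 1.1 for Sst, 0.96 for Gcg, 0.87 for Ppy and 0.42 for Ins2, and differed by -0.054 for Ins1. Across this pair, which holds the dimmest array, Ins1 had almost the same signal while Iapp differed about as much as the array did. The 12-month arrays did not show that contrast: on replicate 1 the percentile was 1.14 above that on replicate 3, while Iapp was higher by 0.38, Ins1 by 0.30 and Ins2 by 0.31, and Pyy and Ghrl differed by -0.29 and -0.34. The highest unnormalised Ins1 signal, on 12-month replicate 1, was 71.0% of the scanner's ceiling, and Ins1 read 44.1% to 47.2% on the 3-month arrays. Iapp read 44.8% to 58.4% of the ceiling on the 12-month arrays and 7.27%, 23.7% and 23.2% on 3-month replicates 1 to 3. The part of array brightness in the ratios was not tested.

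The 3 arrays of similar brightness, 12-month replicate 3 with 3-month replicates 2 and 3, were chosen by the 75th percentile alone. On the 12-month array 59.5% of probes were well above background, and on the 3-month arrays 76.5% and 77.5%. Over these 3 arrays the Iapp signal before normalisation was 18.41 at 12 months and 17.49 and 17.47 at 3 months. The difference from the mean of the 2 young arrays was 0.93. Over the same arrays it was 0.34 for Ins1, 0.29 for Ins2, 0.42 for Gcg, 0.36 for Sst, 0.60 for Ppy and 0.68 for Pyy. For Ghrl it was 1.51, above that of Iapp, and for Npy -1.24. The ratio of Iapp to Ins1 was -0.37 on the 12-month array and -0.89 and -1.02 on the 3-month arrays. With the quantile-normalised values of these 3 arrays alone the Iapp difference was 0.92 (limma adjusted p = 0.309), and with brightness as a covariate over all 6 arrays it was 0.81 (limma adjusted p = 0.209).

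**Figure D4:**
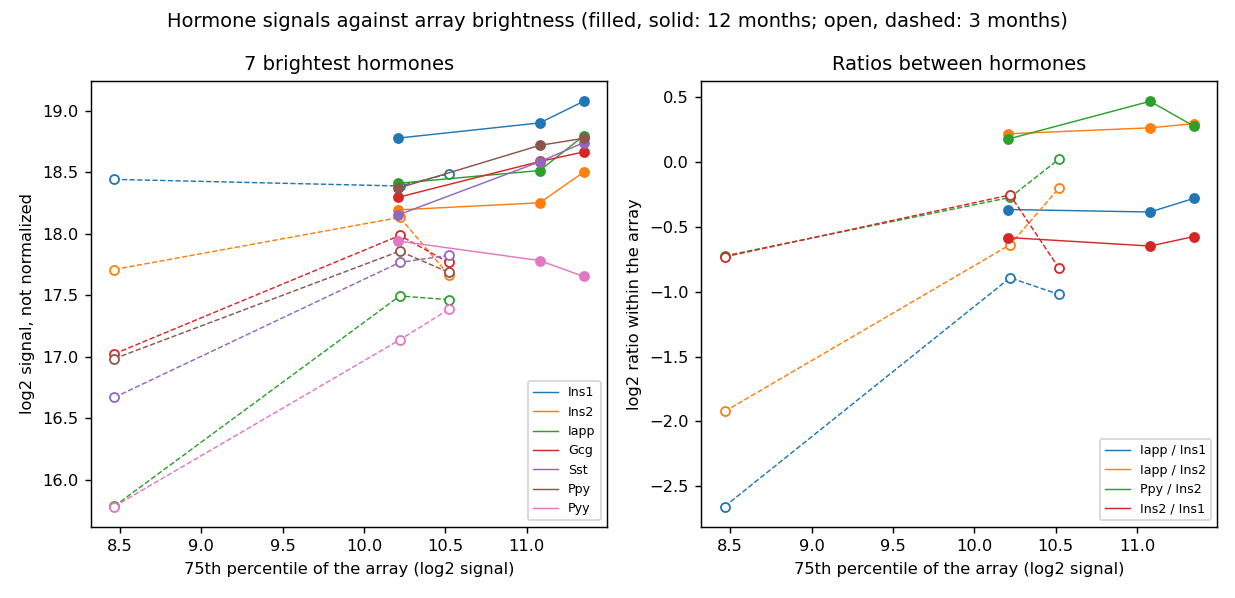
Left, log2 signal before normalisation of the 7 brightest hormones against the log2 75th percentile of each array (12-month arrays filled with solid lines, 3-month arrays open with dashed lines). Right, 4 ratios within arrays (log2) against the same percentile. Ins1 is nearly level over the 3-month arrays while Iapp is 1.71 lower on the dimmest of them than on 3-month replicate 2, and near a percentile of 10.2 the 12-month Iapp point lies above the 3-month one.

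Genes that act on the hormone genes or their products were taken from 4 lists, and counts are again at the adjusted threshold that 8.37% of all probes passed. Of 17 transcription factors of hormone genes 11 had a probe, all were tested, 4 were higher at 12 months and 0 lower, with a median difference of 0.82. Isl1, a LIM homeodomain factor of all islet endocrine cells, differed by 3.25 (SE 0.41, limma adjusted p = 0.0106). It read 8.23, 7.76 and 9.26 at 12 months and 5.11, 5.45 and 4.94 at 3 months, well apart, though the 3-month signals were low. Under normexp background correction the Isl1 difference was 2.10 (limma adjusted p = 0.0158). Isl1 did not pass with the methods' t-test (adjusted p = 0.0601) or a replicate block of 3 pairs (limma adjusted p = 0.0735). Neurod1, a basic helix-loop-helix activator of the insulin genes, differed by 2.20 (SE 0.28, limma adjusted p = 0.0108). It passed with the methods' t-test (adjusted p = 0.0441) but not with a replicate block of 3 pairs (limma adjusted p = 0.0656). Hhex, a homeodomain factor of delta cells, differed by 1.68 (limma adjusted p = 0.0236) and Pax6, a factor of all islet endocrine cells, by 1.19 (limma adjusted p = 0.0489). Isl1 and Neurod1 passed with each of the 6 arrays left out in turn, whereas Hhex passed in 2 of the 6 and Pax6 in 0.

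Of 10 genes of hormone processing and clearance none passed in either direction, and the median difference was -0.032. Among them Pcsk1 and Pcsk2, the proteases that cut prohormones, differed by 0.59 (SE 0.26, limma adjusted p = 0.172) and -0.13 (SE 0.27, limma adjusted p = 0.751). Of 18 receptors and receptor partners of these hormones 14 were tested, 0 were higher and 2 lower at 12 months, with a median of -0.26. Ramp3, a partner of the calcitonin receptor in amylin receptors, differed by -1.32 (SE 0.30, limma adjusted p = 0.0451). It read 11.12 to 11.50 at 12 months and at least 12.13 at 3 months, and it did not pass with any 1 array left out. The list's other Ramp genes went in opposite directions, each without overlap. Ramp1 differed by -1.56 (SE 0.46, limma adjusted p = 0.0773) and Ramp2 by 2.05 (SE 0.64, limma adjusted p = 0.0879). Calcr, the calcitonin receptor itself, was well above background on no array and was not tested. Glp2r, the receptor of a second peptide cut from proglucagon, had no 12-month array on which it was well above background. Only a bound can be given, for quantile-normalised values: its signal was at least 1.61-fold lower at 12 months (limma adjusted p = 0.0383). Glp2r passed with 1 of the 6 arrays left out in turn. Under normexp background correction its measured difference was only -0.39 (limma adjusted p = 0.188), smaller than the bound, which therefore depends on the background correction. Of 6 genes of granule cargo 1 was higher and 1 lower. Slc30a8, the zinc transporter of insulin granules, differed by 3.71 (SE 0.44, limma adjusted p = 0.00904) and Vgf, a granin-like prohormone, by -1.04 (SE 0.23, limma adjusted p = 0.0440). Slc30a8 passed with each array left out, and Vgf in 1 of the 6. Like Isl1, Slc30a8 did not pass with the methods' t-test (adjusted p = 0.057) or a replicate block of 3 pairs (limma adjusted p = 0.0661).

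Marker genes other than hormones were read for the cells that the preparation could hold, as the sum of normalised signals of each list. Beta cell markers had a named probe for 4 of 8 genes, not for Mafa, G6pc2, Pdx1 and Ero1b. Of these 2 were higher at 12 months, Slc30a8 and the glucose transporter Slc2a2 (4.11, SE 0.35, limma adjusted p = 0.00369), the list's median was 2.60, and the sum over the 4 was 71100 to 101400 at 12 months and 33230 to 43540 at 3 months. The other markers were Nkx6-1, a beta cell homeodomain factor, at -0.22 (SE 0.31, limma adjusted p = 0.650), and Ucn3, a peptide of mature beta cells, at 1.49 (SE 0.67, limma adjusted p = 0.174), both with overlap. The summed markers were higher on every 12-month array, as Iapp was, but this rise lay mainly in Slc2a2 and Slc30a8 and was not shared by Nkx6-1. Ins1 and Ins2 overlapped between the ages after quantile normalisation, though not without normalisation. The part of beta cell number in the Iapp values was not tested.

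Alpha cell markers had 0 of 5 tested genes past the threshold, a median of 0.24 and a sum of 127000 to 150500 at 12 months and 73810 to 113700 at 3 months, beside the small difference of Gcg. Delta cell markers had 1 of 4 higher (Hhex), a median of 0.65 and a sum of 21790 to 24640 at 12 months and 15580 to 17380 at 3 months, beside that of Sst. The delta list's Lepr and the alpha list's Irx1 were not tested, being near background.

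Markers of nerve and Schwann cells, which bear on Npy, had 0 of 6 tested genes higher and 2 lower at 12 months, with a median of -1.75. The sum over 7 genes was 1778 to 2791 at 12 months and 4460 to 9418 at 3 months. Prph, an intermediate filament of peripheral neurons, differed by -3.04 (SE 0.58, limma adjusted p = 0.0299) and Sox10, a Schwann cell factor, by -2.08 (SE 0.38, limma adjusted p = 0.0336). Sox10 had no value on 3-month replicate 1, which the fit left out. Prph passed with 2 of the 6 arrays left out in turn and Sox10 with 1. Th and Dbh, the enzymes of noradrenaline synthesis in the sympathetic nerves that also use Npy, differed by -1.23 (SE 0.48, limma adjusted p = 0.132) and -2.15 (SE 0.59, limma adjusted p = 0.0672). Npy itself differed by only -0.34 with overlap, and the part of nerve RNA in it was not tested.

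Exocrine RNA was abundant in both ages, since the 9 acinar markers with a probe summed to 1564000 to 2580000 at 12 months and 1691000 to 2406000 at 3 months, and none passed. Stellate cell markers had 0 of 4 past the threshold with a median of 1.46 and sums of 23990 to 62710 against 9302 to 16240. Endothelial markers had 0 of 5 with a median of -0.76 and sums of 29010 to 49150 against 52480 to 67660. These sums lay mostly in Plvap. Only 1 of the 5, Pecam1, was higher at 12 months, by 1.23 (SE 0.46, limma adjusted p = 0.124) and without overlap. Duct, immune and red blood cell markers had 0 of 3, 0 of 5 and 0 of 3 past the threshold, with overlapping sums.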

How the data were processed

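Total RNA of rat islets was profiled on 6 Cy3 arrays. The authors deposited scanner output of Agilent Feature Extraction whose background-subtracted intensity, per the file headers, had not been normalised between arrays, with quality marks for each spot. A second deposited table, with log2 values of 12145 probes, followed the values computed here with a correlation of at least 0.9996 on each array.

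The log2 intensities of a probe's spots were averaged, outlier spots left out, and then quantile normalised. Of 24684 probes 17944 were well above background on at least 3 arrays and 17941 could be tested. The test between ages was limma's (version 3.58.1, R 4.3.3), two-sided with lmFit and eBayes and without a block, and p-values were adjusted by Benjamini-Hochberg over all tested probes, a step that was tested on simulated data. Ranks and ratios used exact permutation tests over the 20 arrangements of 6 arrays. Arrays have no read depth, and their number limits the precision.

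Age came from the labels, where 1 of the 12-month arrays carries no replicate number and was numbered 3 here as a name. The accessions were matched without versions to RefSeq's table for GRCr8, which named 14294 probes. A gene was given by its brightest probe. The members, the lists and the tests were chosen with earlier results of these data known. The rule named all 9 hormones, up to 4 genes per list and direction with an adjusted p under 0.05, and the 3 genes most like each hormone over the arrays. Pcsk1, Pcsk2, Ramp1, Ramp2, Nkx6-1, Ucn3, Th, Dbh, Pecam1 and Plvap were named after their values were seen. So were the genes called not tested, without a probe or near background. Some genes that the rule or the lists include are not reported here. Alternatives were other scalings, filters, variance models, replicate blocks, arrays left out and, added after seeing the data, brightness as a covariate and the 3 arrays of similar brightness. Promoter sequences are RefSeq's for GRCr8. No probe coordinates are given, as the design of the array rests on an older build.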

Additional observations from a re-analysis of the deposited data

How the results depend on the processing

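At the adjusted threshold 0 hormones passed as reported, and 1, Iapp, passed with cyclic loess (1.16, limma adjusted p = 0.0448), normexp (1.05, 0.0219), the authors' values (0.96, 0.0463), a filter for probes above background on all 6 arrays (0.0377), no filter (0.0388), an intensity trend with robust variances (0.0108) and array weights (0.0119). The methods' t-test, paired or not, called 0 hormones at the study's threshold and 0 after Benjamini-Hochberg adjustment. The Iapp adjusted p over the 23 alternatives ran from 0.0108 to 0.329, and the array weights put 8.56 on 12-month replicate 1. At the study's threshold (0 as reported) the count was 2 with no normalisation, 1 with cyclic loess, normexp, array weights, the brightness covariate and the 3 arrays of similar brightness, and 0 to 1 with an array left out. Hormones without overlap (3 as reported) numbered 1 with the 75th percentile shift, 8 with no normalisation, 1 with cyclic loess and 3 to 5 with an array left out, the 5 without 3-month replicate 1. The counts for ranks (3) and ratios (15) stayed within 1.5 times: 2 to 4 and 10 to 19.

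Differences that turned direction were, under the 75th percentile shift, Ins1 at -0.669, Gcg at -0.225, Sst at -0.0765, Ppy at -0.0374 and Pyy at -0.125. With no normalisation these were Ins2 at 0.479, Npy at 0.546 and Vgf at 0.111. Ins2 was 0.0151 with cyclic loess, 0.108 with the brightness covariate and 0.185 on the 3 similar arrays, and Pyy was -0.122 with array weights. On the 4 arrays that share a name ending, Pyy was -0.051 and Npy 0.077. With an array left out Ins1 ran from -0.0225 to 0.192 and Pyy from -0.0356 to 0.437. With a replicate block of the 2 numbered pairs Ghrl was -0.114 and Npy 0.126. Iapp was 1.00 (limma adjusted p = 0.329) with that replicate block, and its adjusted p was 0.161 with a replicate block of 3 pairs. The 2 same-numbered pairs of arrays deviated with correlations of -0.0104 and -0.311, and the third pair, formed with the array that carries no number, gave -0.26. With 3 arrays per age these correlations cannot show whether arrays with the same number belong together. In its lists of changed genes the paper treated the arrays as pairs when computing p-values. For the turned differences the cause was not tested. An average over several probes could not be applied, since each hormone had 1 probe.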

Other observations

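Over the 6 arrays the genes whose quantile-normalised level followed a hormone most closely, among 9089 named genes well above background on every array, were not hormones. Iapp was nearest to Mettl25b (Pearson r = 0.996), Tpt1 (0.995) and Ssbp1 (0.995), Ppy to Calm2 (0.994), Lgr4 (0.989) and Nrsn1 (0.987), and Gcg to Gclm (0.980) and Cks1b (0.978). Ins1 was nearest to Zbtb44 (0.960), Tle3 (0.955) and Glp1r (0.953), and Ins2 to Pmpca (0.986), Spag7 (0.977) and Hexim2 (0.975). Sst was nearest to Eif4a2 (0.973), Scara3 (0.971) and Ift81 (0.971), Pyy to Ppp1r12a (0.950), Pdpk1 (0.913) and Fxr1 (0.907), Ghrl to Atf5 (0.978), Camk2n1 (0.978) and Numb (0.974), and Npy to Eif2ak2 (0.986), Lyve1 (0.969) and Alx4 (0.968). These are the highest of many correlations over 6 arrays that share 2 ages and 2 scans, given as descriptions.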
